A study of Mus musculus with 38 samples.

Results

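The mir-34 and mir-449 miRNAs were examined in sperm small RNA of 38 adult male C57BL/6J mice from 21 litters. The family was taken as the 6 hairpins mmu-mir-34a, mmu-mir-34b, mmu-mir-34c, mmu-mir-449a, mmu-mir-449b and mmu-mir-449c (named without the mouse prefix from here on), found by name among the 689 miRNA rows of reads that match both the genome and the miRNA database. Reads were listed for 5 of the 6 members, and 4 of them (mir-34a, mir-34b, mir-34c and mir-449a) reached the mean of 10 reads per mouse that was needed for a test, as did 200 miRNAs in all. Each sample was sperm that swam out of the cut epididymides of 1 mouse killed at 11 to 13 weeks of age.

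Each group name joins 2 diets. Its first 2 letters stand for what the dam ate from conception until her litter was weaned at 21 days, and its last 2 for what the son ate afterwards. CT is a control diet with 20% protein and PR a protein-restricted diet with 8% protein. CTCT mice (n = 10) had the control diet throughout, CTPR mice (n = 9) were restricted only after weaning, PRCT mice (n = 9) only before it, and PRPR mice (n = 10) throughout. No group carries a genetic change, and brothers from 1 litter were split between the post-weaning diets, so that mice of CTCT and CTPR share dams, as do those of PRCT and PRPR. For litter 47I the labels and the study's own supplement give the opposite post-weaning diets, and the labels were followed.

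miRNAs are cut from hairpin precursors and pair with target transcripts mainly through the seed, bases 2 to 8 of the mature strand. The mir-34 and mir-449 miRNAs share a seed and many targets, and mir-34a is among those known as p53-responsive. mir-34b, mir-34c and the mir-449 cluster are known as miRNAs of multiciliated cells and of male germ cells. Mouse mutants that lack both the cluster of mir-34b and mir-34c and the mir-449 cluster have defects of spermatogenesis and of motile cilia. mir-34c is abundant in mature sperm, where it has been followed as a miRNA that reaches the egg.

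The mature sequences show what makes the members a family. RefSeq, on the build GRCm38.p6, gave 9 mature sequences for 5 of the 6 members, and mmu-miR-34c-5p and mmu-mir-449b had no entry there. The 4 guide-arm (5p) sequences are printed first, 5′ to 3′, with the seed in capitals.
mmu-miR-34a-5p: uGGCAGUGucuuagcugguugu
mmu-miR-34b-5p: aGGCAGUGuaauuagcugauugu
mmu-miR-449a-5p: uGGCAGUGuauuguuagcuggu
mmu-miR-449c-5p: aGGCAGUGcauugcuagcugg
These 4 are the only ones of the 1738 mature sequences in the reference table with this seed. Over their whole length, seed included, mmu-miR-34a-5p and mmu-miR-34b-5p carry the same base at 11 of 22 positions counted from the 5′ end without gaps, and mmu-miR-449a-5p and mmu-miR-449c-5p at 18 of 21.

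The opposite (3p) arms of the 2 neighbouring hairpins mir-34b and mir-34c have another seed, which these 2 alone share in the table.
mmu-miR-34b-3p: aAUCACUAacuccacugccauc
mmu-miR-34c-3p: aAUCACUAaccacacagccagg
They match at 17 of 22 positions. The count files give 1 number per hairpin, so reads of the 5p and the 3p arm are added together in every value below, and how a read that fits several of these sequences was assigned is not given in the sources used here.

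The members lie at 3 loci of GRCm38, the assembly also called mm10 to which the reads were mapped. Mir34a lies on the plus strand at chr4:150068454-150068555, where its end overlaps an exon of the unconfirmed gene Gm37795. Mir34c (chr9:51103034-51103110) and Mir34b (chr9:51103562-51103645) lie 451 bases apart on the minus strand, inside an intron of Btg4, which is read from the opposite strand. Mir449c (chr13:113035983-113036091), Mir449b (chr13:113037419-113037498) and Mir449a (chr13:113037534-113037624) lie on the plus strand in introns of Cdc20b, in the same direction as that gene.

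Levels are given in 2 units, because the share of miRNA reads differed greatly between mice. RPM stands for reads of a member per 1000000 reads that match the genome (4465281 to 7612603 such reads per mouse). miRNA RPM stands for reads per 1000000 miRNA reads, the share of the miRNA class (7805 to 378918 such reads per mouse). miRNA reads made up 0.158% to 5.55% of the genome-matching reads, a range of 35.0-fold. The 9 mice of the 5 litters 02A, 07C, 08G, 09H and 14A, which have the lowest litter numbers, had 0.158% to 0.712%, and the other 29 mice had 0.657% to 5.55%. All 4 diets are among these 9 mice, 3 of which are CTCT and 2 of each other group. The labels do not say what a litter number stands for beyond the litter. The 9 mice were set apart after the data were seen.

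mir-34c was by far the most abundant member. It had 12.1 RPM in the lowest mouse, 379 RPM in the median mouse and 1327 RPM in the highest. Its miRNA share was 27146 ± 9145 miRNA RPM (SD, n = 38), rank 9 among all miRNAs by mean share, after mir-148a, mir-143, mir-3535, mir-10a, mir-21a, let-7g, mir-99a and mir-10b. The family as a whole took 3.08% ± 0.961 of miRNA reads (SD, n = 38), and mir-34c supplied 69.6% to 94.9% of the family's reads in every mouse.

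mir-34b followed at 5.27 RPM, 21.3 RPM and 55.1 RPM in the lowest, median and highest mouse. mir-34c exceeded mir-34b in 38 of 38 mice, by 3.80 ± 1.03 on the log2 scale of miRNA shares (SD; sign-flip permutation test, 2-sided, p = 1e-05, the smallest that 100000 resamples can give). The neighbours on chromosome 9 were thus counted at very unequal levels. The sign-flip tests here and in the next paragraph treat mice as independent, although 17 litters gave 2 brothers each. Their p-values may therefore be too small.

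mir-34a had 0 RPM in the lowest, 13.6 RPM in the median and 72.2 RPM in the highest mouse, and mir-449a had 0, 7.74 and 42.9 RPM. mir-34b exceeded mir-34a in 35 of 38 mice (sign-flip permutation p = 1e-05) and mir-449a in 38 of 38. On the log2(value + 1) scale of miRNA share, mir-34a and mir-449a did not differ beyond their spread over all 38 mice. mir-34a was higher in 25 mice, mir-449a in 11, and the mean difference was -0.25 ± 2.49 (SD; sign-flip permutation p = 0.548). This mean depends on the 1 added to each value. The PRCT mice 14A4 and 08G3 had 0 reads of mir-34a and 22 and 23 reads of mir-449a. Without the log scale, the mean share was 755 miRNA RPM for mir-34a and 592 for mir-449a. Within the 29 mice of the other litters, a split made after the data were seen, mir-34a was higher in 25 of 29 mice (mean difference 0.66 ± 0.65 SD, sign-flip permutation p = 3e-05). Within the 9 mice named above it was higher in 0 of 9, with 2 mice tied at 0 reads.

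The other members of the mir-449 cluster had almost no reads under their own names. How reads that also fit mir-449a were assigned is not known, so these counts need not reflect their levels. mir-449c had 1 read in 1 PRCT mouse and 0 reads in the other 37, and mir-449b was listed in no mouse. A count of 0 allows up to 0.394 to 0.672 RPM, 3 reads in a library, depending on the mouse. In any 1 mouse, 0 reads therefore do not exclude levels of mir-449b or mir-449c below that. This is not a limit of detection, as the 1 read of mir-449c stood at 0.170 RPM.

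**Figure D1:**
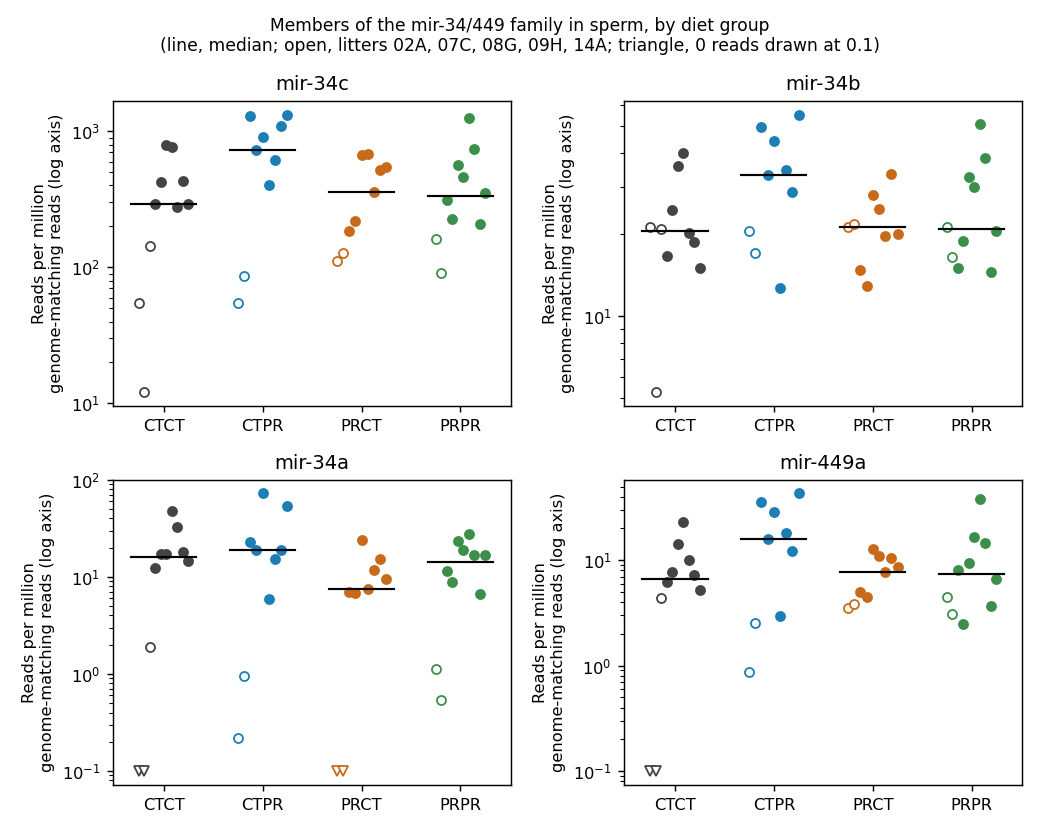
Each point is 1 mouse and shows the RPM of a member on a log axis, by diet group, with the group median as a line. Open points are the 9 mice of litters 02A, 07C, 08G, 09H and 14A, set apart after the data were seen. Triangles are mice with 0 reads drawn at 0.1. Each open point of mir-34a and mir-34c lies below every filled one.

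Over all 38 mice the members differed in how closely they followed the percentage of miRNA reads. On log2 scales the RPM of mir-34c followed it at r = 0.94, that of mir-34a at 0.92 and that of mir-34b at 0.68, beside a median of 0.87 over the 200 miRNAs. Among the 29 mice these were 0.84, 0.78 and 0.79, beside a median of 0.80, so the lower value of mir-34b rests on the 9 mice. These coefficients are descriptions, since the miRNA reads include the members. From mouse to mouse mir-34c spanned 110-fold in RPM and mir-34b 10.5-fold. The SD of log2(RPM + 1) was 0.64 for mir-34b, the fourth lowest of the 200 miRNAs tested, whose median SD was 1.10. It was 1.46 for mir-34c, 1.28 for mir-449a and 1.75 for mir-34a, which ranks 196 of 200 from the lowest. As a share of miRNA reads the order was different: the SD of log2(share + 1) was 0.53 for mir-34c, 0.90 for mir-34b, 2.15 for mir-449a and 3.09 for mir-34a. Over all 38 mice mir-34c was thus the steadiest member per miRNA read and mir-34b the steadiest per genome-matching read. Among the 29 mice the share of mir-34b was 1442 ± 415 miRNA RPM (SD, 703 to 2216). That of mir-34c was 28669 ± 8995 (SD, 11903 to 53848), so mir-34c was not clearly steadier than mir-34b by share there. The SDs of mir-34a and mir-449a include mice at 0 reads and depend on the pseudocount of 1.

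The same contrast appears between the 9 mice with few miRNA reads and the other 29. mir-34c had 12.1 to 161 RPM in the 9 mice and 185 to 1327 RPM in the 29, and mir-34a had 0 to 1.88 RPM against 5.89 to 72.2 RPM. Neither range overlapped. mir-34a had 0 to 12 reads per library in the 9 mice, 4 of which had none, and 38 to 434 reads in the 29. mir-34b had 5.27 to 21.8 RPM in the 9 mice and 12.7 to 55.1 RPM in the 29, and these ranges did overlap. mir-449a also overlapped, at 0 to 4.52 RPM against 2.48 to 42.9 RPM. Over all 38 mice the log2 RPM of the 200 miRNAs followed the percentage of miRNA reads at a median r of 0.87. Low RPM in the 9 mice is therefore not shown to be particular to these members. How many of the 200 miRNAs separate the 2 sets, in RPM or in share, was not counted.

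As a share of miRNA reads, mir-34b was higher in the 9 mice (2398 to 12172 miRNA RPM) than in any of the 29 (703 to 2216), while mir-34a was lower (0 to 276 against 325 to 1902). The share of mir-34c overlapped (7626 to 32287 against 11903 to 53848). The 9 mice have the lowest litter numbers and are not a treatment group. They were set apart after the data were seen, so no test was made between them and the rest. The ranges that separate them are descriptions, and what sets their libraries apart was not tested.

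The number of mir-34c reads per mir-34b read puts both neighbours on 1 scale that needs no library total. It ran from 2.29 in the lowest mouse over 17.4 in the median mouse to 38.4 in the highest. The 9 mice had 2.29 to 7.55 and the 29 mice 11.9 to 38.4, with no overlap. Because the 9 mice were set apart after the data were seen, this separation is a description and not an independent finding. In CTCT mice it was 2.29 at the lowest, 17.3 at the median and 23.1 at the highest, in CTPR mice 2.65, 21.98 and 38.4, in PRCT mice 5.18, 16.8 and 27.2, and in PRPR mice 5.47, 16.3 and 24.7. The 4 diets overlapped over most of this range.

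**Figure D2:**
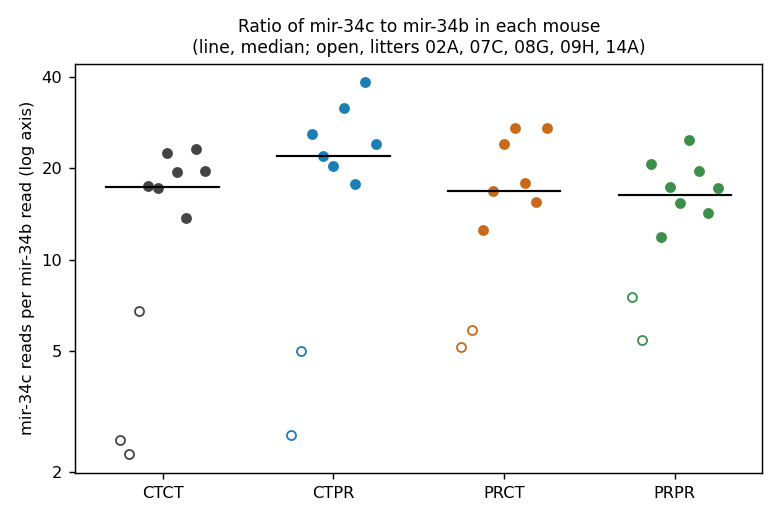
Reads of mir-34c per read of mir-34b in each mouse on a log axis, by diet group, with the median as a line. The open points, the 9 mice of the 5 lowest litter numbers, lie at 2.29 to 7.55 and all filled points at 11.9 or above. The 9 mice were set apart after the data were seen.

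**Figure D3:**
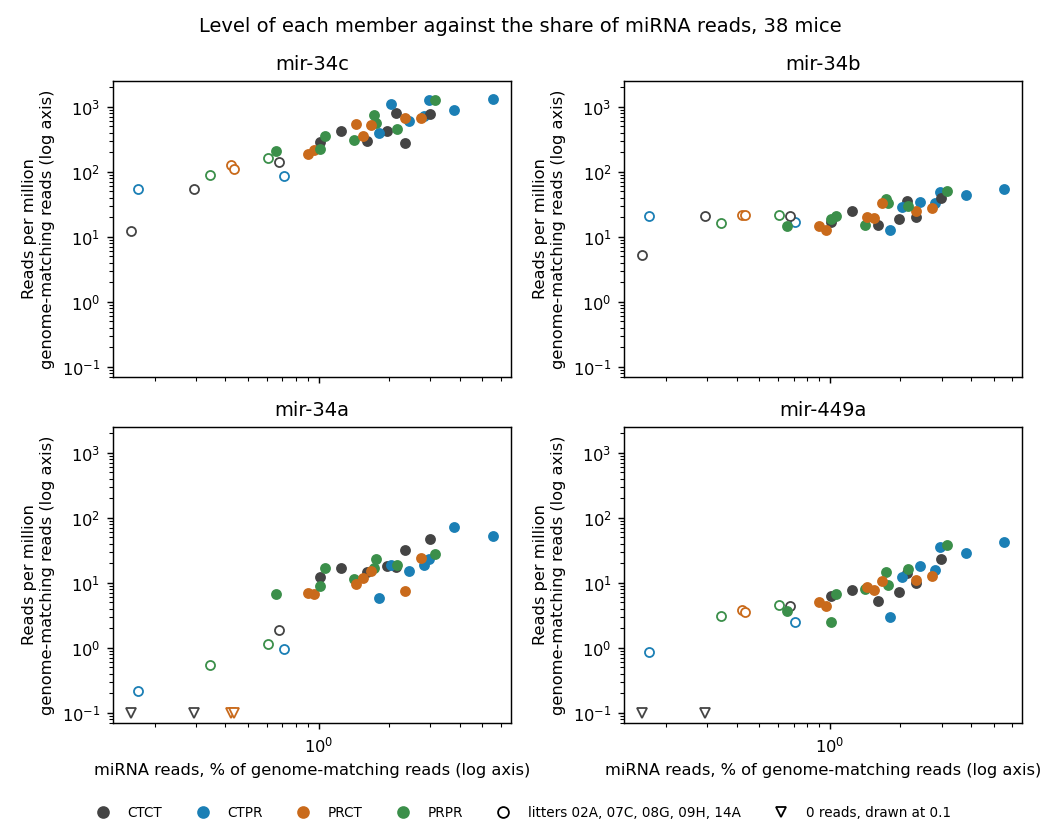
RPM of each member against the percentage of genome-matching reads that are miRNA, both on log axes, for 38 mice coloured by diet. Both mir-34c (12.1 to 1327 RPM) and mir-34b (5.27 to 55.1 RPM) rise with the percentage, mir-34b over a narrower range.

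How the members moved together was examined within each of these sets, since the shares of mir-34a and mir-34b form separate clusters over all 38 mice. Among the 29 mice, the miRNA share of mir-34c was related to that of its chromosome 9 neighbour mir-34b (Pearson r = 0.60, Spearman rho = 0.64, adjusted permutation p = 0.00312 and 0.00204 over 6 pairs of members). It was also related to that of mir-449a (r = 0.51, rho = 0.56, adjusted permutation p = 0.0158 and 0.00573). Without the 2 mice farthest from the median of mir-34b in the first pair and of mir-34c in the other, r was 0.54 and 0.58. In the same 29 mice mir-34c gave r = 0.76 with mir-140 and 0.69 with mir-881, non-members picked below for their r. A relation of this size was thus not limited to neighbours. Whether members go together more than other miRNAs do was not tested.

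mir-34b and mir-449a gave r = 0.48 and rho = 0.42 (adjusted permutation p = 0.0171 and 0.0465), which dropped to r = 0.26 without the 2 farthest mice and so rests on them. mir-34a showed no relation past the threshold with mir-34c (r = -0.01, adjusted permutation p = 0.965), mir-34b (r = 0.35, p = 0.0737) or mir-449a (r = 0.37, p = 0.0737). Whether these r values differ from those of the other pairs was not tested. In the 9 mice no pair passed (largest r = 0.69, mir-34c with mir-449a, adjusted permutation p = 0.174). Shares of 1 total are not independent of each other. The permutations also ignore litter and diet: the 29 mice hold 13 pairs of brothers, whose deviations in share correlated at 0.52 for mir-34b and 0.46 for mir-34c, so these p-values may be too small.

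Post-weaning restriction after a control-fed dam, CTPR against CTCT, gave mir-34c its largest log2 fold change of the 4 diet comparisons by genome-matching reads, but not by miRNA reads, where PRPR against CTCT was larger. mir-34c had 12.1 RPM at the lowest, 293 at the median and 798 at the highest in CTCT mice, and 54.8, 724 and 1327 RPM in CTPR mice. The groups overlapped, and the CTPR median lay above the CTCT median. In the fit with genome-matching reads as library size the log2 fold change was 1.04 ± 0.57 (SE), which did not pass (edgeR quasi-likelihood test, p = 0.0732, Benjamini-Hochberg adjusted p = 0.690). The edgeR errors and p-values here and below take brothers as independent, unless a litter block is named. The median log2 fold change of all 7026 features in this comparison was 0.67, so the difference of mir-34c beyond that of the typical feature was smaller than the value itself. With errors of this size, a log2 difference of 1 in mir-34c was not detectable in this fit, and the absence of a call by genome-matching reads in the comparisons that follow is limited in the same way.

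The other members had log2 fold changes in the same comparison of 1.18 ± 0.74 for mir-449a, 0.59 ± 0.37 for mir-34b and 0.52 ± 0.96 for mir-34a. None of the 4 members was called at an adjusted p under 0.05, where 12 of 7026 features (0.171%) were. With miRNA reads as library size, mir-34c had a log2 fold change of 0.37 ± 0.23 (SE, edgeR p = 0.108, adjusted p = 0.935) and mir-449a one of 0.41 ± 0.33. mir-34b was at 0.09 ± 0.46 and mir-34a at -0.26 ± 0.50 in that fit. Here too 0 of the 4 members were called, as were 0 of 200 miRNAs (0%), of which 10 had an unadjusted p under 0.05 in edgeR and 13 in DESeq2, which also called 0.

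The miRNA share of mir-34c showed how far the groups overlapped. It was 7626 miRNA RPM at the lowest, 21502 at the median and 37381 at the highest in CTCT mice, and 12036, 25300 and 53848 in CTPR mice. PRCT mice had 20662, 25510 and 37917, and PRPR mice 21308, 29100 and 43153. All medians of the restricted groups lay above that of CTCT, and every group overlapped every other. The percentage of miRNA reads itself had a median of 1.43% in CTCT, 2.43% in CTPR, 1.44% in PRCT and 1.24% in PRPR mice.

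Restriction before weaning only, PRCT against CTCT, took no member past the threshold. mir-34c had 111 RPM at the lowest, 355 at the median and 676 at the highest in PRCT mice, inside the CTCT range. Its log2 fold change was 0.11 ± 0.56 by genome-matching reads and 0.27 ± 0.23 by miRNA reads (SE). mir-34a had the largest difference of the family, with log2 fold changes of -0.83 ± 0.97 and -0.64 ± 0.51, and 2 mice at 0 reads in each group. None of the 4 members was called in either fit, where 2 of 7026 features (0.0285%) and 0 of 200 miRNAs (0%) were. At an unadjusted p under 0.05 there were 7 of the 200 miRNAs in edgeR and 9 in DESeq2, which also called 0.

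Lifelong restriction, PRPR against CTCT, gave mir-34c log2 fold changes of 0.33 ± 0.55 by genome-matching reads and 0.40 ± 0.22 by miRNA reads (SE). mir-34c had 90.6 RPM at the lowest, 333 at the median and 1260 at the highest in PRPR mice. mir-449a followed with 0.45 ± 0.72 and 0.53 ± 0.32. mir-34b was at 0.25 ± 0.36 and 0.00 ± 0.44, and mir-34a at -0.29 ± 0.94 and -0.04 ± 0.49. None of the 4 members was called, where 4 of 7026 features (0.0569%) and 0 of 200 miRNAs (0%) were. Unadjusted, 5 of the 200 miRNAs were under 0.05 in edgeR and 11 in DESeq2, which also called 0.

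The post-weaning diet after a restricted dam, PRPR against PRCT, moved mir-34c by 0.21 ± 0.57 on the log2 scale by genome-matching reads and by 0.14 ± 0.23 by miRNA reads (SE). The largest difference was that of mir-34a, at 0.54 ± 0.97 and 0.61 ± 0.51. None of the 4 members was called, where 1 of 7026 features (0.0142%) and 0 of 200 miRNAs (0%) were. Unadjusted, 2 of the 200 miRNAs were under 0.05 in edgeR and 8 in DESeq2, which also called 0. The comparisons with CTCT share its 10 mice, and their values are therefore not independent.

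Whether the post-weaning diet acted differently after the 2 kinds of dam was tested as the difference of those effects, PRPR minus PRCT less CTPR minus CTCT. It was -0.83 ± 0.80 for mir-34c, -0.67 ± 1.04 for mir-449a, -0.35 ± 0.52 for mir-34b and 0.02 ± 1.33 for mir-34a by genome-matching reads (log2, SE). By miRNA reads it was -0.23 ± 0.32, -0.17 ± 0.47, -0.05 ± 0.65 and 0.87 ± 0.71. None of the 4 members was called, where 71 of 7026 features (1.01%) and 0 of 200 miRNAs (0%) were. Unadjusted, 7 of the 200 miRNAs were under 0.05 in edgeR and 7 in DESeq2, which also called 0.

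Over all 5 comparisons and both fits, 0 of the 40 tests of a member had an unadjusted p under 0.05 (smallest 0.0732). In the order given above, such p-values were found for 8.24%, 6.02%, 5.75%, 5.78% and 6.31% of all features by genome-matching reads, and for 5%, 3.5%, 2.5%, 1% and 3.5% of miRNAs by miRNA reads. Without the 9 mice with few miRNA reads the log2 fold change of mir-34c by genome-matching reads, CTPR against CTCT, was 0.95 ± 0.40 (edgeR p = 0.0253, adjusted p = 0.461). By miRNA reads without these mice, mir-34a was at -0.71 ± 0.27 for PRCT against CTCT (edgeR p = 0.0125, adjusted p = 0.452) and at 0.94 ± 0.37 for the difference of effects (edgeR p = 0.0171, adjusted p = 0.847). No member was called there either, nor was any feature for CTPR against CTCT.

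**Figure D4:**
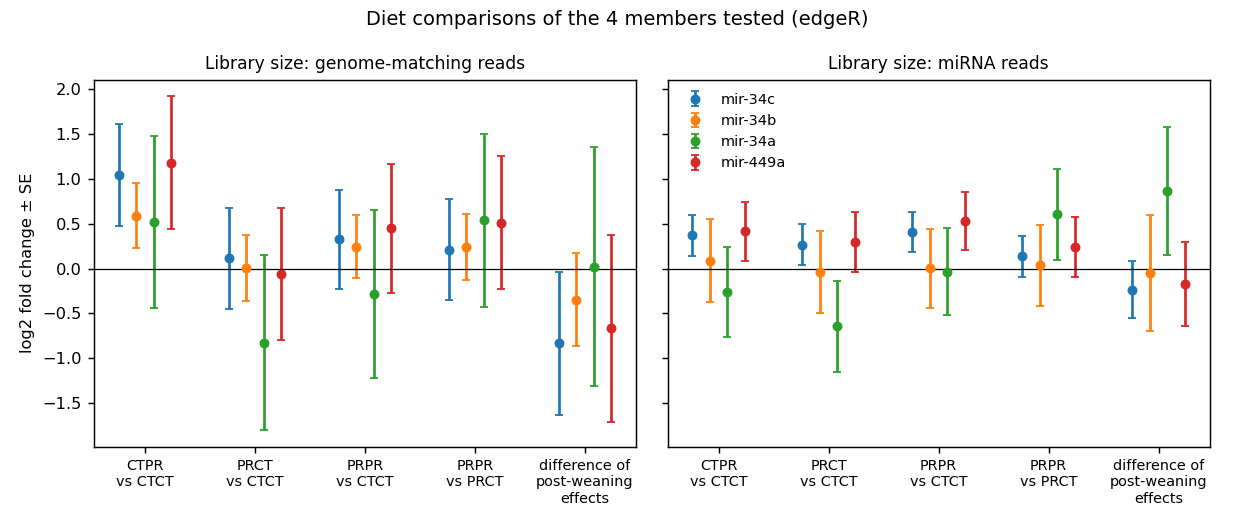
Log2 fold changes of the 4 tested members with their SE (bars) from edgeR, for the 4 diet comparisons and the difference of post-weaning effects, with genome-matching reads (left) or miRNA reads (right) as library size. The values of mir-34c and mir-449a for CTPR against CTCT, 1.04 and 1.18 on the left, are 0.37 and 0.41 on the right.

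Littermates allow the post-weaning diets to be compared within a dam. In the 8 litters with both a CTCT and a CTPR son, mir-34c in RPM was higher in the CTPR brother in 6 and lower in 2. The difference in log2(RPM + 1) ran from -0.73 in litter 09H to 2.17 in litter 57P, with a mean of 0.52 ± 0.94 (SD; exact 2-sided sign-flip test, p = 0.188, smallest possible 0.00781). As a share of miRNA reads mir-34c was higher in 5 of 8 litters, with a mean difference of 0.15 ± 0.60 (SD; exact sign-flip p = 0.492).

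In the 9 litters with both a PRCT and a PRPR son, mir-34c in RPM was higher in the PRPR brother in 5 and lower in 4. The mean difference was 0.04 ± 0.82 (SD; exact sign-flip p = 0.891), and as a share it was 0.10 ± 0.37 (SD; exact sign-flip p = 0.496). Brothers therefore differed in both directions under either kind of dam.

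Of the other members, mir-449a in RPM was higher in the CTPR brother in 6 of 8 litters (mean log2 difference 0.67 ± 1.40 SD), mir-34a in 5 of 8 (0.02 ± 1.15) and mir-34b in 4 of 8 (0.34 ± 0.81). In the PRPR brothers mir-34a was higher in 7 of 9 litters by RPM (0.47 ± 0.80) and in 8 of 9 by miRNA share. The share difference of mir-34a had a mean of 2.04 ± 3.09 (SD), and its highest values, 7.55 in litter 08G and 7.31 in litter 14A, came from litters whose PRCT brother had 0 reads, so that they depend on the pseudocount. The other 7 litters lay between -0.0098 and 1.44. In the CTPR brothers mir-34a was higher by share in 3 of 8 litters (0.32 ± 2.80 SD), with 7.01 in litter 02A, whose CTCT brother had 0 reads. In the fit by miRNA reads with the litter as a block, the log2 fold change of mir-34a for PRPR against PRCT was 0.68 ± 0.32 (SE, edgeR p = 0.0533, adjusted p = 0.882), and for CTPR against CTCT it was -0.54 ± 0.31 (SE, edgeR p = 0.108, adjusted p = 0.923).

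Brothers resembled each other in some measures and not in others. Over 17 pairs of brothers, deviations from the diet group means correlated at r = 0.84 for the log2 ratio of mir-34c to mir-34b and at r = 0.82 for the log2 percentage of miRNA reads. Over the 13 pairs without litters 02A, 08G, 09H and 14A these were 0.01 and 0.48, so the first rests on those 4 litters. For the miRNA share of mir-34c the correlation was 0.33 over 17 pairs and 0.46 over 13. These coefficients are descriptions and carry no test.

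**Figure D5:**
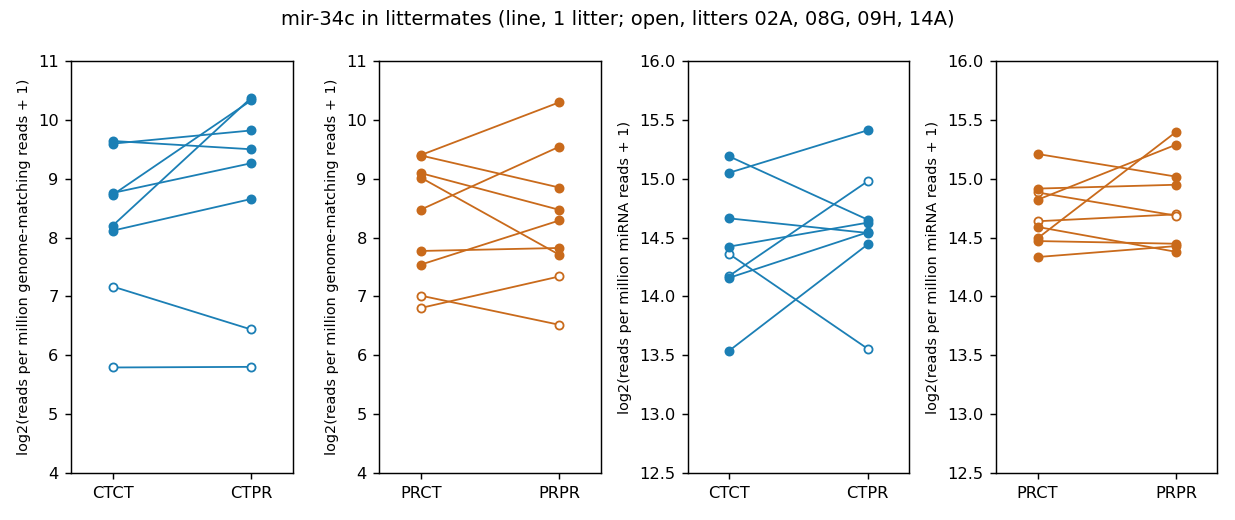
mir-34c in brothers of 1 litter, joined by a line, as log2(RPM + 1) in the left pair of panels and log2(miRNA share + 1) in the right pair. Lines rise in 6 of 8 litters from CTCT to CTPR and in 5 of 9 from PRCT to PRPR by RPM, and in 5 of 8 and 5 of 9 by share.

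The miRNAs whose share ran most like that of mir-34c over the 38 mice, among 199 others with a mean of at least 10 reads, were mir-872 (r = 0.75), mir-140 (0.66), mir-340 (0.65), mir-881 (0.62) and mir-20a (0.62). Within the 29 mice these were 0.67, 0.76, 0.51, 0.69 and 0.49. Least like it were let-7d (-0.55), let-7e (-0.50) and mir-125a (-0.47), which were -0.35, -0.48 and -0.14 within the 29 mice. The names were picked for their r, so none of these coefficients is a test. For mir-34b, a list made after its values were seen was led by mir-191 (r = 0.94), mir-92a-1 (0.93) and mir-375 (0.86), which were 0.72, 0.62 and 0.41 within the 29 mice.

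Markers of germ cells and of other cell types that an epididymal preparation can hold were followed beside the family. The X-linked testis miRNAs (mir-741, mir-743, mir-880, mir-881, mir-465 and others) had reads for 17 of 17 names, and their summed share was 16695 to 51590 miRNA RPM in CTCT, 26897 to 91608 in CTPR, 27159 to 68508 in PRCT and 26156 to 76480 in PRPR mice. Over the 9 mice with few miRNA reads the sum was 20630 to 91608 (mean 57606). Over the other 29 it was 16695 to 66552 (mean 36829). The highest sum in each of CTPR, PRCT and PRPR thus came from the 9 mice. mir-881, the most abundant of the X-linked list, had 17645 ± 5097 in CTCT, 26235 ± 10718 in CTPR, 27364 ± 12849 in PRCT and 26048 ± 10332 miRNA RPM in PRPR mice (SD, n = 10, 9, 9 and 10), lowest on average in CTCT. By miRNA reads 0 of the 16 tested rows of this list were called in any comparison, as were 0 of all 200 miRNAs. The median log2 fold change of the 16 rows by miRNA reads was 0.31 for CTPR, 0.32 for PRCT and 0.43 for PRPR against CTCT, beside 0.06, 0.02 and 0.06 for all 200 miRNAs and 0.37, 0.27 and 0.40 for mir-34c.

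Markers of other cell types were well above 0 in the sperm samples. The epithelial mir-200 miRNAs had reads for 5 of 5 names and summed to 17704 to 48269 miRNA RPM over all mice, with means of 38970 ± 6190, 36678 ± 10385, 35018 ± 7144 and 34742 ± 5486 in CTCT, CTPR, PRCT and PRPR (SD). Muscle and stromal miRNAs, led by mir-143, had 6 of 6 names and summed to 45855 to 164006, mir-126a of endothelium had 2178 to 10752, and blood cell miRNAs, led by mir-223, had 6 of 6 names and summed to 848 to 5509. Tested were 5 of 5 epithelial rows, 9 of 11 muscle and stromal rows, 3 of 7 blood cell rows and 1 of 1 endothelial rows. None was called by miRNA reads in any comparison, where 0 of all 200 miRNAs were. The paper reported high sperm purity for these preparations. Its evidence was low methylation at MEST, NESP and MCTS2 and high methylation at IGF2/H19 in every diet group. A representative RNA trace also lacked ribosomal RNA peaks. The miRNA levels given here do not measure how many other cells were present. In such a bulk sample, fewer cells of a type and less RNA per cell cannot be told apart, and the part of other cells in the levels of the family was not tested.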

How the data were processed

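With SPORTS 1.0 the authors matched single-end reads against mm10 and against databases of small RNA classes, and deposited for each mouse a table of read counts by class and by miRNA hairpin or other sequence name. The deposited counts are raw whole numbers. The class of miRNA reads that match the genome supplied the members. Among the 3 miRNA rows that do not match the genome none is a member, and that class is missing in 1 mouse.

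Counts were tested with edgeR 4.0.16 (R 4.3.3) by the quasi-likelihood method in its older form, with the 4 diet groups in 1 fit. The model held the diet group only and not the litter. Library sizes were the genome-matching reads, as in the study's methods (7026 of 638429 features with a mean of at least 10 reads per mouse), or miRNA reads (200 of 689 miRNA rows). A call is a Benjamini-Hochberg adjusted p under 0.05. Levels on a log scale are log2(value + 1). Permutation tests used 100000 resamples unless called exact, and a permutation p written 1e-05 is rounded. Intervals and limits for counts of 0 cover counting error only. Each mouse is 1 library. The scripts were tested on simulated data. There the fit by genome-matching reads called few of the changes put in, the larger ones included, so the absence of a call in that fit says little.

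Litters were read from the mouse ID in the labels, and brothers were paired by litter. Their deviations from the group means correlated for log2 RPM of mir-34c at r = 0.74 in CTCT with CTPR and 0.72 in PRCT with PRPR, and at 0.42 over the 13 pairs without litters 02A, 08G, 09H and 14A. The genes named are all members, the 5 miRNAs most like and the 3 least like mir-34c in share, and the most abundant of each marker list. The members, the lists and the tests were chosen with earlier results of these data known. Coordinates come from GENCODE vM21, and sequences from RefSeq.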

Additional observations from a re-analysis of the deposited data

Results flagged for a closer look

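Within the diet groups, 40 sets of values were screened for a mouse far from the rest by Dixon's ratio at its critical value, and 4 stood out. Chance alone picks about 1 in 20 where values are normally distributed. The values were screened without a log scale and the sets reuse the same reads, so that rate need not apply here. mir-34b as a share of miRNA reads stood at 7229 miRNA RPM in 1 CTCT mouse, next to 3324 in the mouse below it, and at 12172 in 1 CTPR mouse, next to 2398. Both are brothers of litter 02A, and their miRNA reads were 0.294% and 0.170% of genome-matching reads. mir-34a as a share stood at 1902 in the CTPR mouse of litter 47I, next to 958, which is the litter with conflicting diet records. mir-449a stood at 37.7 RPM in the PRPR mouse of litter 40H, next to 16.5.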

How the results depend on the processing

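No member passed an adjusted p of 0.05 under any alternative run. Among 986 alternatives to the members' values by genome-matching reads, 928 kept the sign of the reported value and 58 turned it, and the smallest adjusted p was 0.0896 (mir-34c, CTPR against CTCT, edgeR, no filter on low counts). The library totals in the study's supplement equal those in the files, so that alternative was not run. The cause of the differences between settings was not tested.

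The number of called features by genome-matching reads moved most. In the order CTPR, PRCT and PRPR against CTCT, PRPR against PRCT and the difference of post-weaning effects, it was 12, 2, 4, 1 and 71. It was 179, 54, 76, 27 and 155 with edgeR's current method, 70, 76, 64, 72 and 102 with DESeq2 (CTPR 41 higher and 29 lower, against 7 and 5 as reported), 2997, 260, 551, 252 and 2833 with no filter, and 3, 2, 2, 0 and 2 with at least 10 reads in every mouse. filterByExpr gave 3 for CTPR and 1 for the difference, and TMM gave 10 for CTPR, 4 of them higher, with the median log2 fold change of all features at 0.15 in place of 0.67. With the litter as a replicate block the counts were 0 for CTPR against CTCT and 0 for PRPR against PRCT, as they were on the same mice without it, and the block changed no call of a member. Without mice 07C3, 35F2, 31A3 and 08G5, picked from earlier results of these data for irregular class totals, the counts were 0 for CTPR, 0 for PRCT, 1 for PRPR against CTCT and 8 for the difference. Without litters 02A, 07C, 08G, 09H and 14A, added after the data were seen, they were 0 for CTPR, 0 for PRCT and 1 for the difference. Leaving out 1 mouse gave 0 to 21, 0 to 2, 2 to 5, 1 to 1 and 24 to 82. For CTPR and PRPR against CTCT the lowest came without the CTCT mouse 35F2, and for the difference without the PRPR mouse 31A6. For PRCT the 0 came without 35F2 or any of several other mice. By miRNA reads the count was 0 under every alternative.

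Signs that turned all belonged to values that were not called. For CTPR against CTCT the log2 fold change of mir-34a became -0.14 with TMM, -0.22 with DESeq2 and -0.26 by miRNA reads, and that of mir-34b -0.086 with TMM and -0.13 with DESeq2. For PRCT against CTCT mir-34b became -0.026 with litter 47I exchanged, -0.034 without the 4 mice, -0.15 without the 5 litters and -0.036 by miRNA reads, mir-34c became -0.053 without the 5 litters, and mir-449a 0.18 with TMM, 0.19 with DESeq2, 0.29 without litter 47I and 0.29 by miRNA reads. For PRPR against CTCT mir-34a became 0.068 without litter 47I. The difference of effects of mir-34b became 0.11 with TMM and 0.15 with DESeq2.

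By genome-matching reads, leaving out 1 mouse gave ranges that cross 0 for mir-34a in PRPR against CTCT (-0.48 to 0.068) and in the difference of effects (-0.34 to 0.46), for mir-34b in PRCT against CTCT (-0.11 to 0.14), for mir-34c in PRCT against CTCT (-0.034 to 0.34), PRPR against CTCT (-0.010 to 0.55) and PRPR against PRCT (-0.13 to 0.36), and for mir-449a in PRCT against CTCT (-0.22 to 0.29) and PRPR against CTCT (-0.030 to 0.80). Without the PRPR mouse of litter 40H mir-34c turned in both PRPR comparisons and mir-449a in PRPR against CTCT. By miRNA reads, over all alternatives, mir-34b crossed 0 in all 5 comparisons (CTPR against CTCT -0.70 to 0.45, difference of effects -0.42 to 0.74), as did mir-34a in PRPR against CTCT (-0.18 to 0.10), and mir-449a in PRCT against CTCT (-0.047 to 0.41) and the difference of effects (-0.30 to 0.018). The smallest unadjusted edgeR p over the alternatives by miRNA reads was 0.0125 for mir-34a and 0.0255 for mir-34c (PRPR against CTCT), and the smallest adjusted p of these members in those comparisons was 0.452 and 0.697.

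The mean littermate difference of mir-34a, CTPR minus CTCT, was -0.13 with litter 47I exchanged and -220.2 in miRNA RPM, and that of mir-34b was -0.023 in log2 miRNA RPM. Over all 38 mice, 2 clusters together, the shares of mir-34a and mir-34b gave r = -0.67, which was 0.35 without the 5 litters and 0.60 in RPM. mir-34b and mir-449a gave -0.28, which was 0.48 without them and 0.82 in RPM, and mir-34a and mir-34c gave 0.35, which was -0.0084 without them. By RPM all 6 pairs were positive (0.60 to 0.92).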
